A study of Mus musculus with 20 samples.

Results

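The 10 genes described here belong to the muscle atrophy program. They are the F-box ubiquitin ligase genes Fbxo32 (atrogin-1), Fbxo30 and Fbxo21, the RING-finger ligase gene Trim63 (MuRF1), the forkhead transcription factor genes Foxo1, Foxo3 and Foxo4, and the stress and growth-control genes Sesn1, Gadd45a and Eif4ebp1. They were taken by gene name from the 22660 rows of the gene count table, and each name matched 1 row. RNA was measured in whole plantaris muscle of 20 male C57BL/6J mice aged 2 years, in 4 groups of 5 separate animals. Mechanical overload (MOV) mice had part of the soleus and gastrocnemius removed in both hindlimbs, which leaves the plantaris to carry the load, and sham mice had the skin opened only. Within each surgery, mice were gavaged on days 7 and 10 with vehicle (polyethylene glycol) or with dasatinib at 5 mg/kg and quercetin at 50 mg/kg (D + Q), a senolytic mixture meant to remove senescent cells, and muscle was collected on day 14. For sham mice the series' own design text gives day 14 as the day of the second gavage, so its timing in that surgery is uncertain.

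Muscle mass depends on the balance between protein synthesis and protein breakdown. FoxO factors that enter the nucleus switch on ubiquitin ligases, which tag muscle proteins for the proteasome, and autophagy genes, while the kinase Akt phosphorylates FoxO factors and keeps them in the cytoplasm. Akt also acts through mTORC1, which phosphorylates the translation repressor 4E-BP1, the product of Eif4ebp1. Fbxo32 and Trim63 are the best-known markers of muscle wasting after disuse, denervation, fasting and glucocorticoid treatment, and the RNA level of a FoxO gene does not show how much of its protein is in the nucleus.

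The promoter of Trim63 is shown because it carries, side by side, motifs of 2 classes of factor that are known to switch this gene on. The 212 bases end just before the annotated gene start, on the plus strand of GRCm39 at chr4:134042181-134042392. The sequence is from RefSeq's promoter table of assembly GRCm38.p6 and was placed on GRCm39 by exact match. Capitals mark a glucocorticoid receptor element (GAACA, then 3 bases of any kind, then TGTTC, which reads the same on both strands), followed after 1 base by a FoxO motif on the reverse strand (TGTTTAC, the reverse of GTAAACA).
Trim63 promoter: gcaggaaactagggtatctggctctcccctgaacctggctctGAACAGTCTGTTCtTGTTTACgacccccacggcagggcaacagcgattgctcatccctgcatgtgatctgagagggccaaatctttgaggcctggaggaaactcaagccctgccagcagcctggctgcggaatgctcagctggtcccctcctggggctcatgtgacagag
The receptor element lay 208 to 196 bases and the FoxO motif 194 to 188 bases before the RefSeq start. On both strands of the 250 bases before each start, the FoxO motif was present in 3.17% of 32851 mouse promoters and the receptor element in 0.0396%, and 1 promoter, that of Trim63, held both. The table held promoters for 7 of the 10 genes, and Trim63 was the 1 member with either motif. The motifs were chosen with this promoter known to carry them, and a match is a description of the letters and not of binding.

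Total counts per mouse lay between 17887532 and 26234518, and each of the 10 genes passed the count minimum in every comparison. The lowest estimated count of any member was 191, for Gadd45a in vehicle sham mouse 5, and the highest 15979, for Fbxo32 in D + Q sham mouse 4. The MOV libraries differed from the sham libraries in composition. The 10 most abundant genes took 23.25% to 24.17% of the counts in sham mice and 16.02% to 18.85% in MOV mice. The 12 muscle fiber markers, such as Acta1 and Ckm, were all detected. Their summed level was 85830 to 95270 CPM (counts relative to the scaled library size) in sham and 51500 to 74800 CPM in MOV muscle. They did not all move alike: 9 were lower and 1 higher in MOV with vehicle, and 11 lower and 1 higher with D + Q. From vehicle sham to vehicle MOV, mean Actn2 went from 1309 to 2364 CPM and mean Acta1 from 23751 to 22557 CPM. The 8 macrophage markers summed to 29.81 to 74.64 CPM in sham and 151.4 to 441.4 CPM in MOV, and the 6 fibroblast markers to 424.1 to 1161 CPM in sham and 5849 to 14410 CPM in MOV. No marker was at 0 in every mouse of a group. The share of these shifts in the changes described below was not tested beyond the rescaling given with each gene, and in whole muscle fewer fibers and less RNA per fiber cannot be told apart. D + Q sham mouse 4 had the highest level of its group in 8 of the 10 genes, and results that rest on it are also given without it.

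The first comparison asks how 14 days of overload changed the atrophy genes in old muscle. With vehicle, 6 of the 10 genes differed between MOV and sham, 2 higher and 4 lower, where 60.5% of the 14601 genes tested differed, 30.7% higher and 29.8% lower. With D + Q, 6 of the 10 differed, 0 higher and 6 lower, where 65.3% of 14913 genes differed, 34.4% higher and 30.9% lower. The groups did not overlap in 5 of the 10 genes with vehicle and 4 with D + Q, where 46.3% and 52.2% of all genes did not overlap. The shares of members called and of members without overlap were thus near those of all genes, and the 2 comparisons are in separate animals. The levels are CPM after scaling by TMM, which centers a trimmed mean of the differences between libraries and rests on the assumption that most genes do not differ. Scaling by total counts alone, or to the muscle fiber markers, moved the median log2 fold change of all genes from -0.02 to 0.36 and 0.43 with vehicle and from 0.02 to 0.39 and 0.52 with D + Q. The split of called members moved with it, from 2 higher and 4 lower to 5 higher and 2 lower with vehicle under both other scalings. In D + Q mice the split was 2 higher and 3 lower under total counts and 4 higher and 2 lower under fiber scaling. The shares of all genes called under these other scalings are not given here. Counts under them, for the members and for the lists below, are thus not read as departures from all genes. Fbxo32 and Foxo4 passed the test as lower, and Sesn1 and Gadd45a with vehicle as higher, under all 3 scalings.

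**Figure D1:**
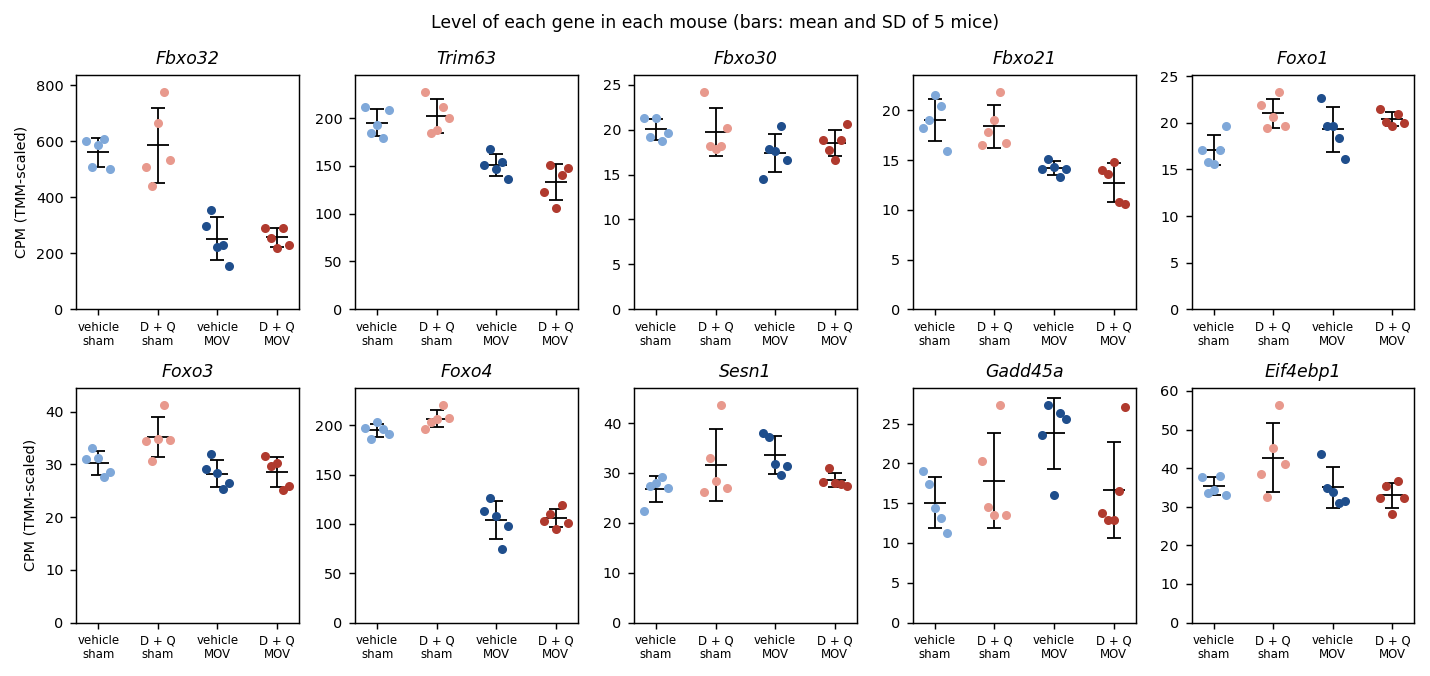
Level of each of the 10 genes in each of the 20 mice, in CPM scaled by TMM on a linear axis from 0; points are mice, and bars are the mean and SD of the 5 mice of a group. Fbxo32, Trim63, Fbxo21 and Foxo4 are lower in all MOV mice than in any sham mouse on this scale. The calls of Trim63 and Fbxo21 did not all hold under total counts or fiber scaling, and the remaining genes overlap between most groups.

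Fbxo32, the F-box subunit that brings substrates such as eIF3f and MyoD to an SCF ubiquitin ligase, is on chromosome 15 (GRCm39, 58039275 to 58078741, minus strand). In vehicle sham mice 1 to 5 its level was 600.7, 507.6, 586, 608.4 and 499.9 CPM. In vehicle MOV mice 1 to 5 it was 296.1, 356.2, 222, 230.6 and 156 CPM. No MOV mouse reached the lowest sham mouse, and the spread among MOV mice was wide for their level, with a coefficient of variation of 30.3% against 9.37% in sham. The log2 fold change was -1.14 ± 0.183 (SE, n = 5 and 5, edgeR quasi-likelihood test with Benjamini-Hochberg adjustment, adjusted p = 0.000203), and 2.42% of all genes tested fell by more. Among D + Q mice, the sham animals had 508.3, 441.3, 666.9, 776.3 and 533.2 CPM. The D + Q MOV mice had 291.4, 254.4, 219.9, 290.7 and 228.1 CPM, again all below the lowest sham mouse. The log2 fold change was -1.14 ± 0.155 (SE, n = 5 and 5, edgeR, adjusted p = 6.62e-05). On the fitted scale the level fell by 54.6% with either treatment, from group means of 560.5 and 252.2 CPM with vehicle and of 585.2 and 256.9 CPM with D + Q. Scaled to the fiber markers, the log2 fold change of Fbxo32 was -0.71 with vehicle and -0.65 with D + Q, and it passed the test in both.

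Trim63, the RING-finger ligase that tags myosin heavy chain and other thick-filament proteins, is on chromosome 4 (GRCm39, 134042393 to 134056948, plus strand, downstream of the promoter printed above). In vehicle sham mice 1 to 5 its level was 211.5, 184.8, 193.2, 178.9 and 208.7 CPM. In vehicle MOV mice 1 to 5 it was 151.2, 167.3, 146.5, 154.5 and 136.5 CPM, all below the lowest sham mouse. Trim63 thus had a log2 fold change of -0.36 ± 0.0736 (SE, n = 5 and 5, edgeR, adjusted p = 0.000643), and 25.4% of all genes fell by more. Sham mice given D + Q had 227.6, 184.1, 187.4, 211.4 and 200.1 CPM. The D + Q MOV mice had 122.5, 150.6, 105.9, 141 and 147.9 CPM, and the groups again did not overlap. This gave a log2 fold change of -0.55 ± 0.0914 (SE, n = 5 and 5, edgeR, adjusted p = 7.12e-05). The direction for Trim63 depended on the scaling: with vehicle it was 0.021 under total counts and 0.093 under fiber scaling, neither past the test. With D + Q it was -0.19 under total counts, which passed, and -0.061 under fiber scaling, which did not. Set against the muscle fiber markers, Trim63 thus had no detectable difference between MOV and sham, while Fbxo32 did.

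Of the other F-box genes, Fbxo21, whose product is a subunit of a further SCF ligase induced in muscle by FoxO, went from 15.96 to 21.54 CPM in vehicle sham mice to 13.31 to 15.15 CPM in vehicle MOV mice. The groups did not overlap, and the log2 fold change was -0.41 ± 0.0901 (SE, n = 5 and 5, edgeR, adjusted p = 0.00111). In D + Q mice the range was 16.49 to 21.86 CPM in sham and 10.54 to 14.79 CPM in MOV, with a log2 fold change of -0.48 ± 0.109 (SE, n = 5 and 5, edgeR, adjusted p = 0.000848). Under fiber scaling the values for Fbxo21 were 0.038 with vehicle and 0.019 with D + Q, so neither its direction nor its call held there. Fbxo30 (MUSA1), the F-box gene of a ligase that is induced by denervation and held down by BMP signaling, did not pass the test. Its mean was 20.0 ± 1.19 CPM in vehicle sham and 17.4 ± 2.14 CPM in vehicle MOV (SD, n = 5 each), and the fitted log2 fold change was -0.19 with a 95% interval of -0.39 to 0.0071. In D + Q mice the means were 19.7 ± 2.68 and 18.5 ± 1.48 CPM (SD, n = 5 each), and the fitted value was -0.04 with an interval of -0.23 to 0.15, and under fiber scaling the value was 0.45 and passed.

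Of the 3 FoxO genes, Foxo4 passed the test with both treatments, Foxo3 with D + Q and Foxo1 with neither, on the TMM scale. Foxo4, a FoxO factor that is abundant in muscle, lies on the X chromosome (GRCm39, 100298073 to 100304479, plus strand). In vehicle sham mice 1 to 5 its level was 197.1, 185.7, 203.4, 196.7 and 191.1 CPM. In vehicle MOV mice 1 to 5 it was 113, 126.5, 107.9, 74.94 and 97.71 CPM. The highest MOV mouse stood well below the lowest sham mouse, and the log2 fold change was -0.89 ± 0.108 (SE, n = 5 and 5, edgeR, adjusted p = 5.89e-06), with 4.99% of all genes falling by more. Sham mice given D + Q had 196.5, 203.2, 206.7, 220.4 and 207.6 CPM. The D + Q MOV mice had 103.2, 109.9, 95.37, 119.4 and 100.6 CPM, a log2 fold change of -0.92 ± 0.0637 (SE, n = 5 and 5, edgeR, adjusted p = 1.25e-09). Fiber scaling left Foxo4 lower, at -0.47 with vehicle and -0.43 with D + Q, and both passed.

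Foxo1, the factor most tied to Trim63 and Fbxo32 induction in fasting, had a log2 fold change in MOV of 0.19 (95% interval -0.02 to 0.40) with vehicle and of 0.01 (-0.14 to 0.16) with D + Q, and passed the test in neither. Its vehicle MOV mice had 22.65, 19.67, 19.69, 18.39 and 16.09 CPM and its vehicle sham mice 17.12, 15.77, 15.61, 17.13 and 19.61 CPM, so 3 of 5 MOV mice were above the highest sham mouse. Under total counts and fiber scaling Foxo1 passed as higher in both treatments, at 0.57 and 0.64 with vehicle and 0.37 and 0.50 with D + Q. Foxo3, which drives both the ligases and autophagy genes, was -0.09 (-0.26 to 0.08) with vehicle and did not pass. With D + Q Foxo3 was -0.25 ± 0.0830 (SE, n = 5 and 5, edgeR, adjusted p = 0.0127), with MOV mice at 25.19 to 31.61 CPM and sham mice at 30.70 to 41.25 CPM, which overlap. That call was lost without D + Q MOV mouse 4 (adjusted p = 0.0519 by edgeR), and under fiber scaling Foxo3 was 0.35 with vehicle and 0.25 with D + Q, higher and past the test in both.

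Sesn1 and Gadd45a are stress genes. Sesn1 encodes sestrin 1, a leucine-sensing inhibitor of mTORC1 induced by p53 and FoxO. Gadd45a encodes a growth-arrest protein that rises in denervated muscle and promotes fiber atrophy. In vehicle sham mice 1 to 5 Sesn1 was at 22.32, 27.34, 27.92, 29.24 and 26.92 CPM. In vehicle MOV mice 1 to 5 it was at 37.92, 37.31, 31.8, 29.59 and 31.3 CPM, so every MOV mouse was above the highest sham mouse, by a narrow margin in mouse 4. Sesn1 thus rose by a log2 fold change of 0.34 ± 0.0921 (SE, n = 5 and 5, edgeR, adjusted p = 0.00475). Sham mice given D + Q had 26.1, 33.02, 28.4, 43.58 and 26.9 CPM. The D + Q MOV mice had 28.28, 31, 28.04, 27.87 and 27.41 CPM, all within the range of the sham mice, and the log2 fold change was -0.10 (95% interval -0.37 to 0.16, edgeR, adjusted p = 0.492). Without D + Q sham mouse 4 it was 0.045 and did not pass, and under fiber scaling it was 0.40 and passed as higher.

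Gadd45a in vehicle sham mice 1 to 5 was at 19.06, 17.44, 14.38, 13.16 and 11.25 CPM. In vehicle MOV mice 1 to 5 it was at 23.54, 27.29, 16.07, 26.31 and 25.56 CPM, so 4 of 5 were above every sham mouse and mouse 3 lay among them. The fitted log2 fold change was 0.67 ± 0.162 (SE, n = 5 and 5, edgeR, adjusted p = 0.00314). Sham mice given D + Q had 20.32, 14.50, 13.57, 27.3 and 13.45 CPM. The D + Q MOV mice had 13.73, 12.84, 12.91, 16.52 and 27.1 CPM, with mouse 5 far above the others. Among the D + Q sham mice, mouse 4 was the highest and mouse 1 the next. The fit gave -0.06 with a wide 95% interval of -0.71 to 0.58 (edgeR, adjusted p = 0.864), whose upper end lies just under the value fitted with vehicle. The direction turned to 0.15 without D + Q sham mouse 4, was -0.30 without D + Q MOV mouse 5, and was 0.31 under total counts and 0.46 under fiber scaling, none of which passed.

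Eif4ebp1 did not differ detectably with vehicle, where MOV mice had 30.90 to 43.78 CPM and sham mice 33.10 to 38.04 CPM, a log2 fold change of 0.00 with a 95% interval of -0.20 to 0.20. With D + Q it was -0.33 ± 0.128 (SE, n = 5 and 5, edgeR, adjusted p = 0.0385). The D + Q sham mice had 38.44, 32.53, 45.33, 56.31 and 41.01 CPM and the D + Q MOV mice 32.15, 35.39, 28.17, 36.71 and 32.19 CPM. Mouse 4 was the highest in both groups and the groups overlapped. This call was lost when any of 6 mice was left out, with adjusted p by edgeR up to 0.0965, and without D + Q sham mouse 4 the value was -0.21. Under fiber scaling Eif4ebp1 was 0.44 with vehicle, past the test, and 0.16 with D + Q, not past it.

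**Figure D2:**
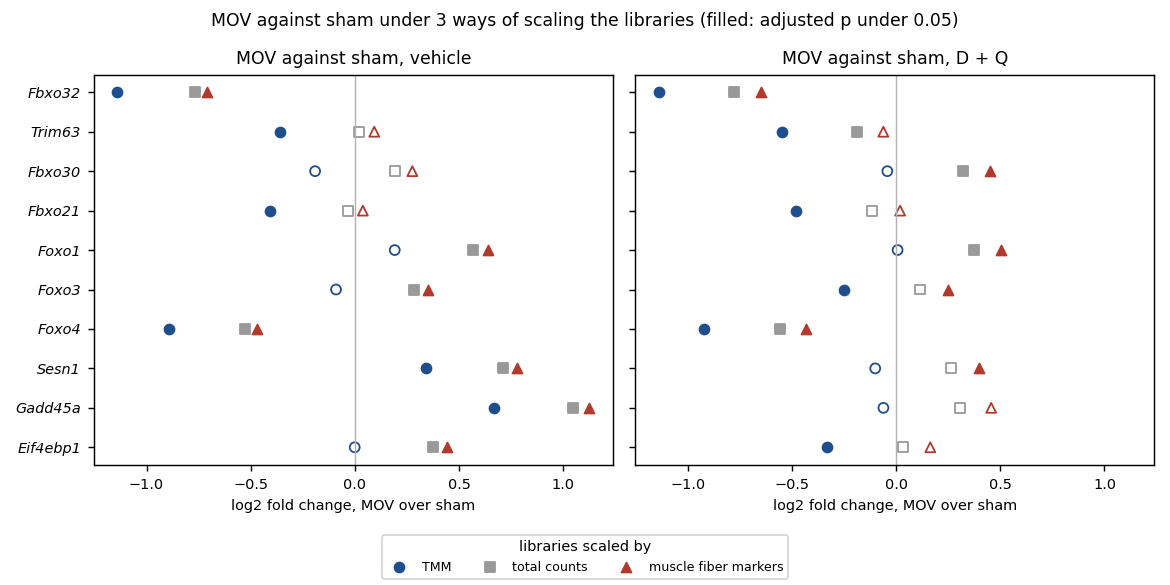
Log2 fold change of MOV over sham for each gene (rows) with vehicle (left) and D + Q (right), with libraries scaled by TMM (circles), by total counts (squares) and to the muscle fiber markers (triangles); filled symbols passed the edgeR test at an adjusted p of 0.05. Fbxo32 and Foxo4 lie left of 0 and filled under all 3 scalings, while Trim63, Fbxo30, Fbxo21, Foxo3 and Eif4ebp1 move from the left of 0, or from 0, to its right in at least 1 treatment, as Sesn1 and Gadd45a do with D + Q.

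Compared per kilobase of each gene's canonical transcript, the levels in vehicle sham muscle spanned a wide range. Trim63 stood highest at 135 ± 9.95 CPM per kb, followed by Fbxo32 at 75.9 ± 7.11 and Foxo4 at 60.4 ± 2.08 CPM per kb (SD, n = 5 each). The second tier held Eif4ebp1 at 17.6 ± 1.16, Gadd45a at 12.2 ± 2.57 and Sesn1 at 10.3 ± 1.01 CPM per kb, of which the last 2 did not differ by more than their spread. Fbxo21 at 4.83 ± 0.544, Foxo3 at 4.42 ± 0.323 and Fbxo30 at 3.73 ± 0.222 CPM per kb lay close together, and Foxo1 was lowest at 1.97 ± 0.185 CPM per kb. In vehicle MOV muscle Trim63 was at 105 ± 7.80 and Fbxo32 at 34.1 ± 10.3 CPM per kb, and Foxo4, at 32.3 ± 5.98 CPM per kb, was then within the spread of Fbxo32. On this scale Foxo4 was the FoxO gene with the most RNA in every group. Sesn1 shares its locus with the protein-coding gene Cep57l1 on the opposite strand. Noncoding genes overlap Fbxo32, Fbxo30, Foxo1, Foxo3, Gadd45a and Eif4ebp1, and since the strand setting of the counting is not given in the sources used here, their reads cannot be told apart from those of the members.

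The next comparisons ask what D + Q changed at each surgery. In sham muscle 0 of the 10 genes passed the test, where 0.215% of 13926 genes did. At an unadjusted p under 0.05 there were 3 of 10, where 10.2% of all genes fell under it, and DESeq2 also called 0. No gene of the 10 was without overlap between the groups, where 2.05% of all genes were. The 3 were Foxo1 at a log2 difference of 0.29 (95% interval 0.12 to 0.47, edgeR, adjusted p = 0.214), Foxo3 at 0.20 (0.04 to 0.37, adjusted p = 0.375 by edgeR) and Eif4ebp1 at 0.26 (0.01 to 0.52, adjusted p = 0.475 by edgeR). For Foxo1, D + Q sham mice had 21.9, 19.49, 20.64, 23.32 and 19.71 CPM against the vehicle sham values above, so 4 of 5 were over the highest vehicle mouse. For Foxo3 they had 34.45, 30.7, 34.74, 41.25 and 34.59 CPM, where vehicle sham mice had 27.55 to 33.04 CPM. The D + Q sham mice also enter the comparison with D + Q MOV, in which Foxo3 and Eif4ebp1 passed as lower on the TMM scale. They did not pass as lower under total counts or fiber scaling. Without D + Q sham mouse 4 the differences were 0.25, 0.14 and 0.15. Over the other settings tried the adjusted p of Foxo1 lay between 0.0869, with DESeq2, and 0.380, without vehicle sham mouse 3 by edgeR.

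The intervals limit what D + Q could have changed in the ligases of sham muscle. For Fbxo32 the D + Q difference was 0.05 with a 95% interval of -0.27 to 0.37, and for Trim63 0.04 with -0.10 to 0.18. Fbxo30 was at -0.03 (-0.23 to 0.16), Fbxo21 at -0.06 (-0.26 to 0.14) and Foxo4 at 0.07 (-0.03 to 0.18). Sesn1 was at 0.23 (-0.06 to 0.52) and Gadd45a at 0.23 (-0.29 to 0.75), which were 0.088 and 0.027 without D + Q sham mouse 4. Leaving out that mouse turned Fbxo32 to -0.069 and moved Fbxo21 to -0.13, Trim63 to 0.024, Fbxo30 to -0.0022 and Foxo4 to 0.054, none past the test. The interval of Trim63 leaves out a change of the size seen with MOV on the TMM scale, and that of Gadd45a does not.

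In MOV muscle, too, 0 of the 10 genes passed, where 0% of 15238 genes did. The study reported many differentially expressed genes for this contrast with DESeq2, which the edgeR test here did not give. The DESeq2 fit made here is given for the 10 genes alone, and the source of this gap was not tested. With an unadjusted p under 0.05 there were 2 of 10, where 8.79% of all genes were under it, and DESeq2 called 0. The groups overlapped in all 10, where 1.48% of all genes did not overlap. The 2 were Sesn1 and Gadd45a, and since the vehicle MOV mice enter both this comparison and that with vehicle sham, these results are not independent. Sesn1 differed by -0.24 (95% interval -0.42 to -0.07, edgeR, adjusted p = 0.523), with 4 of 5 D + Q mice below the lowest vehicle mouse. Gadd45a differed by -0.53 (-1.01 to -0.04, edgeR, adjusted p = 0.547), where vehicle mice averaged 23.8 ± 4.51 CPM and D + Q mice 16.6 ± 6.05 CPM (SD, n = 5 each). Without D + Q MOV mouse 5 the Gadd45a difference was -0.77 and still did not pass (adjusted p = 0.649 by edgeR). For the ligases the differences were 0.02 for Fbxo32 (-0.39 to 0.43), -0.19 for Trim63 (-0.39 to 0.02), 0.08 for Fbxo30 (-0.11 to 0.28) and -0.16 for Fbxo21 (-0.39 to 0.07). Foxo1 was at 0.08 (-0.11 to 0.26), Foxo3 at 0.01 (-0.17 to 0.19), Foxo4 at 0.01 (-0.24 to 0.27) and Eif4ebp1 at -0.10 (-0.31 to 0.12).

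Whether the D + Q difference depended on surgery was tested as an interaction on all 20 mice, and 0 of the 10 genes passed, where 0.0127% of 15700 genes did. With an unadjusted p under 0.05 there were 3 of 10, where 5.71% of all genes were under it, and DESeq2 called 0. Sesn1 was at -0.48 (95% interval -0.80 to -0.15, edgeR, adjusted p = 0.718), Gadd45a at -0.76 (-1.48 to -0.04, edgeR, adjusted p = 0.855) and Eif4ebp1 at -0.36 (-0.70 to -0.03, edgeR, adjusted p = 0.847). Without D + Q sham mouse 4 these were -0.33, -0.55 and -0.24. The call of Sesn1 and Gadd45a with vehicle and its absence with D + Q is therefore not shown to be a difference between the treatments. For Fbxo32 the interaction was -0.04 with an interval of -0.57 to 0.50 (0.088 without D + Q sham mouse 4), and for Foxo4 -0.06 with -0.33 to 0.20.

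**Figure D3:**
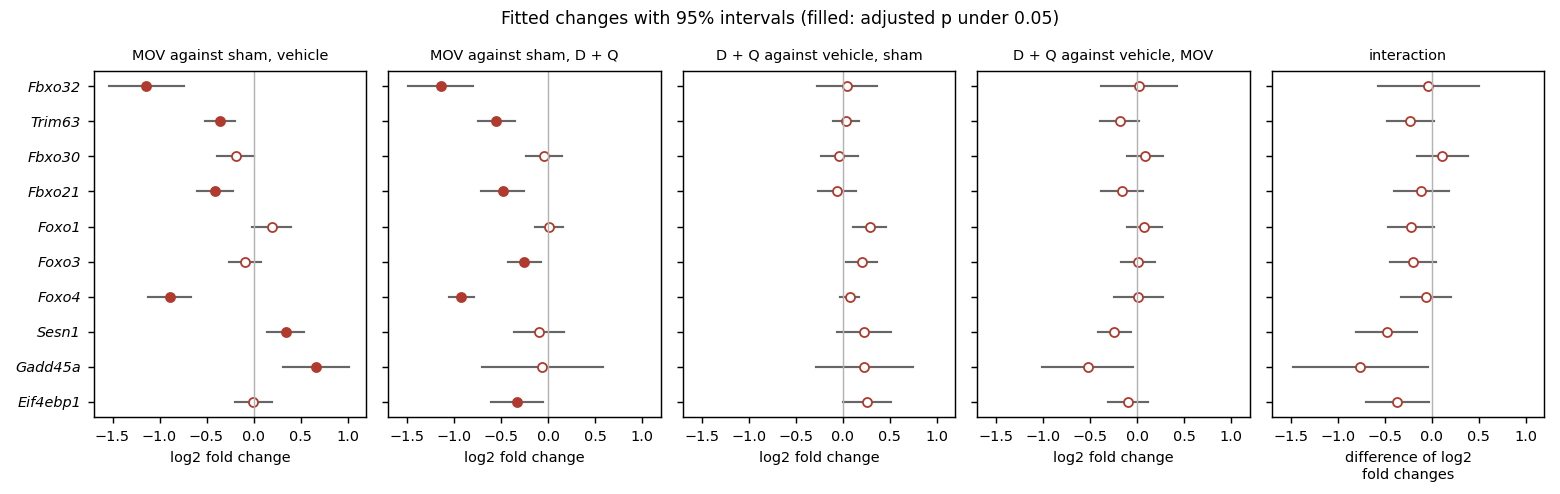
Fitted log2 fold change of each gene (rows) in the 4 comparisons of 2 groups, and the difference of log2 fold changes in the interaction, with 95% intervals; filled points passed the edgeR test at an adjusted p of 0.05. Filled points are present in the 2 comparisons of MOV with sham, 6 in each, and in none of the 3 panels on D + Q.

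The rest of the pathway was read from lists of genes around the members. On the TMM scale, though not under total counts or fiber scaling, most of the ligase and ubiquitin genes were lower in MOV. Of 17 other muscle ubiquitin ligases, 13 were lower and 0 higher with vehicle (median log2 fold change -0.38, against -0.02 for all genes), where 29.8% of all genes were lower. With D + Q 16 were lower and 0 higher (median -0.42), where 30.9% of all genes were lower. Asb2, a ligase subunit that limits muscle mass, had group means of 874.2 CPM in vehicle sham and 471.0 CPM in vehicle MOV (log2 fold change -0.88, edgeR, adjusted p = 3.57e-06). Fbxo31 was at -0.74 with vehicle and -0.98 with D + Q, the MuRF relative Trim55 (MuRF2) at -0.66 with vehicle, and Ubr2, an N-end rule ligase, at -0.62 and -0.77. Of 13 genes for ubiquitin, its conjugating enzymes and the extraction of tagged proteins, 10 were lower and 0 higher with vehicle (median -0.26) and 11 lower and 0 higher with D + Q (median -0.31), beside the same shares of all genes. Ube2d1 was at -0.81 with vehicle, Ube2g1 at -0.69, the proteasome-binding factor Zfand5 at -0.60 and Ube2b at -0.56. Under total counts these directions were not all kept. With vehicle 3 ligases were then higher and 4 lower (median -0.007), and 6 ubiquitin genes higher and 3 lower (median 0.12). In D + Q mice 4 ligases were higher and 7 lower (median -0.06), and 4 ubiquitin genes higher and 4 lower (median 0.05). Fiber scaling did not keep the directions either. With vehicle it gave 3 ligases higher and 2 lower (median 0.07), and 5 ubiquitin genes higher and 2 lower (median 0.19). With D + Q that scaling gave 6 ligases higher and 4 lower (median 0.07), and 7 ubiquitin genes higher and 3 lower (median 0.18). The median of all genes under that scaling was 0.43 with vehicle and 0.52 with D + Q. Both lists thus stayed below all genes in their medians.

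Autophagy genes under FoxO control showed the same dependence. With vehicle 7 of 14 were lower and 2 higher (median -0.29), where 29.8% of all genes were lower and 60.5% differed in either direction, so the number called was near that of all genes. Among them were the initiating kinases Ulk1 at -0.79 and Ulk2 at -0.71 and the lipid kinase complex genes Atg14 at -0.55 and Pik3c3 at -0.53. With D + Q 10 were lower and 1, the lysosomal protease gene Ctsl at 0.58, was higher (median -0.32). Of all genes, 30.9% were lower and 65.3% differed in either direction with D + Q. Total counts gave 5 higher and 2 lower with either treatment. Fiber scaling gave 5 higher and 2 lower with vehicle and 7 higher and 2 lower with D + Q. The medians were then 0.15 and 0.18, against 0.43 and 0.52 for all genes. Of 14 metabolic and stress genes under FoxO control, 7 were lower and 0 higher with vehicle (median -0.50), and 10 lower and 0 higher with D + Q (median -0.57), where 60.5% and 65.3% of all genes differed in either direction. Mstn, which encodes the growth inhibitor myostatin, had 52.8 to 82.1 CPM in vehicle sham and 17.0 to 25.6 CPM in vehicle MOV mice (log2 fold change -1.65, edgeR, adjusted p = 2.15e-07), and -1.63 with D + Q. The mitochondrial superoxide dismutase gene Sod2 was at -1.04, the coactivator gene Ppargc1a at -0.93 and the glucocorticoid-induced gene Tsc22d3 at -0.90 with vehicle. In D + Q mice the fuel-switch gene Pdk4 was at -0.93 and Txnip at -1.03. Under fiber scaling 2 of these 14 were higher and 4 lower with vehicle, and 3 higher and 5 lower with D + Q. Their medians were then -0.07 and -0.08, against 0.43 and 0.52 for all genes.

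Among 20 genes of Akt and mTORC1 signaling, 4 were higher and 11 lower in MOV with either treatment (medians -0.25 and -0.25), where 29.8% of all genes were lower with vehicle and 30.9% with D + Q, and 60.5% and 65.3% differed in either direction. Under fiber scaling there were 9 higher and 5 lower with vehicle and 13 higher and 4 lower with D + Q. The medians were then 0.19 and 0.24, against 0.43 and 0.52 for all genes. The called genes included inhibitors that moved in opposite directions. The arginine sensor Castor1 was at 1.37 and Ddit4 (REDD1) at 1.22 with vehicle, while its relative Ddit4l (REDD2) was at -1.17, and with D + Q the mTOR-binding inhibitor Deptor was at -0.99. Sgk1, a kinase related to Akt that also phosphorylates FoxO factors, was the 1 gene of the lists that passed in a comparison of D + Q with vehicle. It had 102.7 to 173.3 CPM in vehicle sham mice, 64.8 to 79.2 CPM in D + Q sham, 52.1 to 80.6 CPM in vehicle MOV and 60.7 to 83.1 CPM in D + Q MOV mice. Vehicle sham mice thus stood apart from the other 3 groups, and the interaction was 1.25 (edgeR, adjusted p = 0.00676). None of the 10 members had this pattern past the test.

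Of the 9 tested genes that rise on denervation, where Fbxo32, Trim63 and Gadd45a are usually induced, 7 were higher and 2 lower in MOV with vehicle (median 2.85), and 8 of 10 higher and 2 lower with D + Q (median 2.35), where 30.7% and 34.4% of all genes were higher. Fiber scaling left 7 and 8 higher. The 2 lower genes, named after their values were seen, were the synaptic receptor kinase gene Musk, at -0.87 with vehicle and -1.31 with D + Q, and the histone deacetylase gene Hdac4, at -0.72 and -0.49. Of the satellite cell markers in the same mice, 3 of 4 tested were higher with vehicle (median 1.21) and 3 of 5 with D + Q (median 0.64). The shares of all genes are those just given. The summed level of these markers was 19.56 to 30.54 CPM in sham and 34.18 to 44.71 CPM in MOV. Not all rose: from sham to MOV, mean Myod1 went from 19.7 to 20.9 CPM with vehicle and from 20.3 to 21.4 CPM with D + Q. Calcr, a low gene, went from 0.48 to 0.33 CPM with vehicle and from 0.59 to 0.44 CPM with D + Q. The part of the satellite cell markers in the denervation genes was not tested. The fetal acetylcholine receptor subunit Chrng was at 4.45 and the transcription factors Runx1 and Myog were both at 3.53 with vehicle, in the same libraries in which Fbxo32 was lower. Myog went from a mean of 1.73 CPM in vehicle sham to 20.0 CPM in vehicle MOV (edgeR, adjusted p = 8.38e-10). Chrng is a low gene, with group means of 0.205 CPM in vehicle sham and 4.91 CPM in vehicle MOV.

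Paralogs of the members did not follow a common direction. Of the 6 tested of 7, 3 were lower and 1 higher with vehicle, and 2 lower and 1 higher with D + Q. Of all genes, 60.5% differed in either direction with vehicle and 65.3% with D + Q. With 6 genes these counts are not read as a difference from those shares. Eif4ebp2, the second translation repressor of its family, went from 387.8 to 188.8 CPM with vehicle (log2 fold change -1.03, edgeR, adjusted p = 3.95e-07) and was at -1.03 with D + Q, while Eif4ebp1 passed with D + Q alone. Foxo6, a low FoxO gene, was at -0.84 with vehicle and Gadd45g at -0.66, and Gadd45b was at -0.61 with D + Q. Sesn3, a sestrin gene that is itself a FoxO target, was higher with both treatments, at 0.49 with vehicle and 0.87 with D + Q (edgeR, adjusted p = 0.000813 and 1.94e-08), where Sesn1 passed with vehicle alone. Under fiber scaling 2 paralogs were higher and 1 lower with vehicle, and 3 higher and 1 lower with D + Q. Their medians were then 0.06 and 0.53, against 0.43 and 0.52 for all genes.

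**Figure D4:**
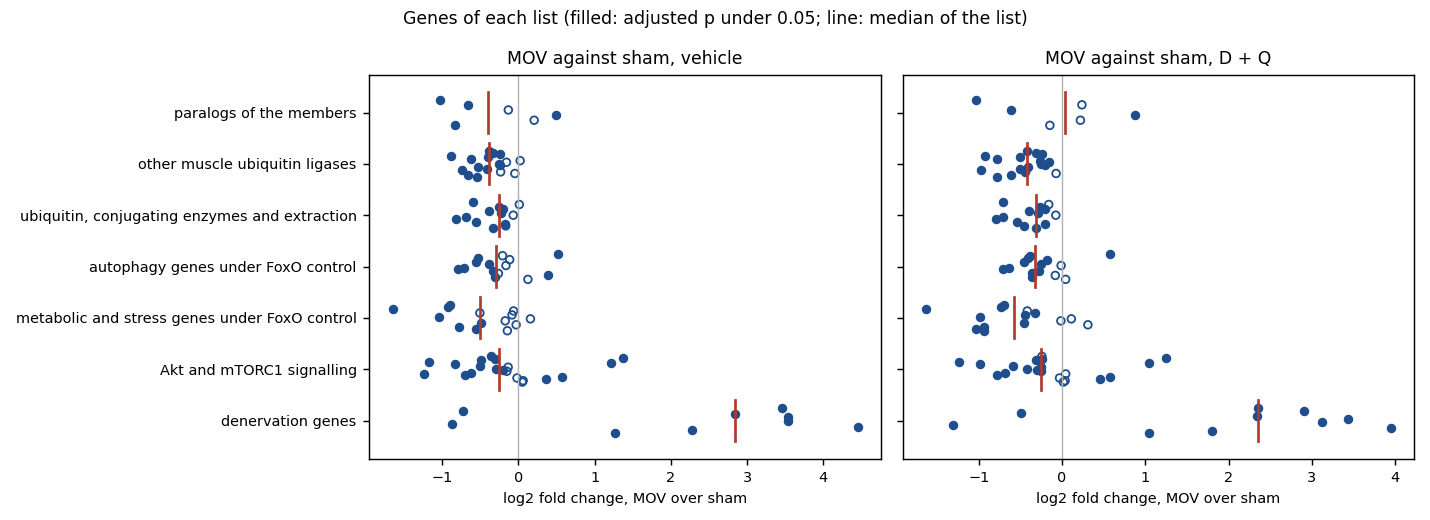
Log2 fold change of MOV over sham on the TMM scale for each tested gene of the 7 lists (rows) with vehicle (left) and D + Q (right); filled points passed the edgeR test at an adjusted p of 0.05, and the line is the median of the list. Ligases, ubiquitin genes and autophagy genes lie mostly left of 0 on this scale, and most denervation genes lie right of 0. The direction of the first lists was not kept by fiber scaling and was kept only in part by total counts.

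Mice of 1 group varied together in some of the genes. After each group's mean was subtracted from log2 CPM, 2 of the 45 pairs of members passed a permutation test over the 20 mice with Benjamini-Hochberg adjustment. The permutations crossed groups and made no allowance for the subtracted means or for unequal spread, so their p may be too small. Fbxo32 and Eif4ebp1 had Pearson's r = 0.736 and Spearman's rho = 0.809 (n = 20, two-sided permutation tests, adjusted p = 0.0135 and 0.0036), and r = 0.901 without the 2 mice farthest from the median of Fbxo32. Fbxo21 and Foxo3 had r = 0.676 and rho = 0.699 (n = 20, permutation tests, adjusted p = 0.0268 and 0.00956), and r = 0.567 without the 2 farthest mice, which no longer passed (adjusted p = 0.160, permutation test). Without D + Q sham mouse 4, which was left out after the data were seen, the r values were 0.674 and 0.590 and neither passed (adjusted p = 0.0689 and 0.0923, permutation tests), so both calls depend on that mouse. By rho, 4 pairs passed, the other two being Foxo4 with Fbxo32 (r = 0.553, adjusted p = 0.0788, rho = 0.707, adjusted p = 0.00956, permutation tests) and with Eif4ebp1 (r = 0.528, adjusted p = 0.0911, rho = 0.747, adjusted p = 0.00495, permutation tests). Fbxo32 and Trim63 were not among them.

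**Figure D5:**
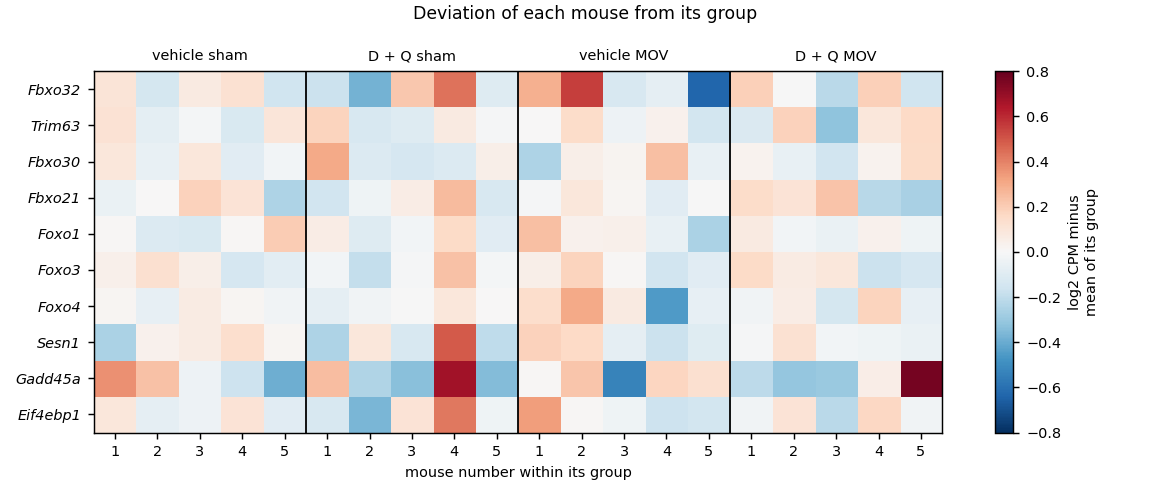
Deviation of each mouse from its group's mean, in log2 CPM (color, red above and blue below), for the 10 genes (rows) and the 20 mice by group (columns). D + Q sham mouse 4 is red for most genes and was the highest of its group in 8 of 10, vehicle MOV mouse 2 in 6, and D + Q MOV mouse 3 was the lowest of its group in 6.

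The genes most like Fbxo32 in this variation, among 13200 genes with a mean of at least 1 CPM, were Eif3f (r = 0.939, rho = 0.874), Fbxo31 (r = 0.895, rho = 0.853) and Crbn (r = 0.875, rho = 0.817), over 20 mice. They were picked as the highest of all, so no p is given, and the mice share depth and composition. Without the 2 mice farthest in Fbxo32 the r values were 0.882, 0.823 and 0.796, and without D + Q sham mouse 4 they were 0.927, 0.902 and 0.849. Eif3f encodes a translation initiation subunit, Fbxo31 another F-box subunit and Crbn the substrate receptor cereblon. In vehicle MOV mice Eif3f was at 90.0 to 119.6 CPM and in vehicle sham mice at 120.9 to 132.5 CPM, a log2 fold change of -0.25 (edgeR, adjusted p = 0.00817). The genes most like Trim63 were Ppm1b (r = 0.797, rho = 0.744), Ripor1 (r = 0.769, rho = 0.692) and Zdhhc23 (r = 0.745, rho = 0.800). Ripor1 went the other way between the groups, at 0.68 in MOV against sham with vehicle (edgeR, adjusted p = 2.37e-06), while Trim63 was lower on the TMM scale. None of the 3 genes most like Fbxo32 was among the 3 most like Trim63.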

How the data were processed

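Total RNA of plantaris muscle was sequenced from 20 mice. Per the labels and the study's methods, the authors aligned reads to GRCm39 with STAR 2.7.8a, estimated counts per gene by expectation-maximization in Partek and kept genes by a minimum of 10 counts; they deposited these estimated counts, not normalized, with 1 column per mouse (22660 rows, 29.8% of values not whole). No pair of mice agreed within counting noise. Estimated counts were rounded and tested here with edgeR 4.0.16 in R 4.3.3 (quasi-likelihood, robust, TMM, a minimum of 10 counts in 5 or more mice of the fit, Benjamini-Hochberg over all genes tested, threshold 0.05). Each comparison used its own 10 mice, and the interaction all 20. CPM are TMM-scaled, and log2 CPM for correlations used a prior count of 2. The tests were checked on simulated data.

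The members and lists were chosen with earlier results of these data known. The named genes were all 10 members, for each list up to 4 called genes with the largest absolute log2 fold change, and the 3 genes most like Fbxo32 and Trim63; 1 gene of the denervation list that the rule selects is not reported here. Alternatives were DESeq2 1.42.0, limma-voom (limma 3.58.1), other scalings and count minimums, 1 fit of all mice, a replicate block and each mouse left out. Gene positions are from the GENCODE annotation of GRCm39 and promoters from RefSeq. P-values rest on separate animals, 5 per group.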

Additional observations from a re-analysis of the deposited data

Results flagged for a closer look

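In 40 groups of 5 mice, 4 for each of the 10 genes, the highest or lowest mouse was set against its nearest neighbor by Dixon's criterion, which chance meets in about 1 in 20 groups, and 2 groups met it. Sesn1 in D + Q MOV mouse 2 was at 31.0 CPM and the next mouse at 28.28 CPM, a gap of 0.757 of the group's range. Gadd45a in D + Q MOV mouse 5 was at 27.1 CPM and the next mouse at 16.52 CPM, a gap of 0.742 of the range. All 5 vehicle MOV mice had more Sesn1 than any vehicle sham mouse, while the D + Q groups overlapped, and the difference between the 2 treatments, tested as an interaction, was -0.48 on the log2 scale with an unadjusted p of 0.00583 and did not pass (edgeR, adjusted p = 0.718).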

How the results depend on the processing

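Among 1040 alternative values of the members, 1006 kept their side of the threshold with no sign change in a called value. Another 12 lost the call, 7 gained one and 15 changed sign where either fit passed. A further 60 changed sign where neither fit passed and are counted among the 1006. All sign changes of called values came from 2 scalings of MOV against sham. Under total counts with vehicle the values were 0.021 for Trim63, 0.28 for Foxo3 and 0.38 for Eif4ebp1, and with D + Q 0.32 for Fbxo30, 0.11 for Foxo3 and 0.032 for Eif4ebp1. Under fiber scaling with vehicle they were 0.093 for Trim63, 0.038 for Fbxo21, 0.35 for Foxo3 and 0.44 for Eif4ebp1, and with D + Q 0.45 for Fbxo30, 0.019 for Fbxo21, 0.25 for Foxo3, 0.40 for Sesn1 and 0.16 for Eif4ebp1. The shift of the median of all genes given above is by construction in every one of these values. Fbxo30 with vehicle passed under limma-voom (-0.27) and without vehicle MOV mouse 4 (-0.24), and Foxo1 with vehicle without vehicle MOV mouse 5 (0.27). Eif4ebp1 with D + Q lost its call with no count minimum and with at least 50 counts (adjusted p = 0.0696 and 0.0554, edgeR), as it did without 6 of the mice. Leaving out each mouse in turn gave 6 to 7 called members for MOV against sham with vehicle, 5 to 6 with D + Q and 0 in the other comparisons. The pairs of members varying together went from 2 to 0 without D + Q sham mouse 4. With the replicate block the counts were 6, 6, 0, 0 and 0. Same-numbered mice had correlations of -0.15 to 0.185, so the number does not pair them. Of 10 mice per comparison, 3, 0, 2 and 2 correlated best with their own number. Members had 191 to 15979 counts per mouse, so counting error weighs more on the low genes.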
